A study of Mus musculus with 20 samples.

Results

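The ductular and biliary progenitor markers described here are 8 genes (Krt7, Krt19, Krt23, Epcam, Sox9, Sox4, Cftr and Prom1) of the 38924 in the deposited table of FPKM, fragments scaled to gene length in kilobases and to the fragments assigned in the library. They were chosen by name, with earlier results of these data known, and all 8 were in the table. RNA came from livers of 20 male mice, either C57BL/6J wild type (WT) or of the TSP-1 knockout line, which lacks thrombospondin-1 (gene Thbs1) in every cell from birth. The mice were 5 weeks old when purchased and received a control diet or CDAHFD for 12 weeks. CDAHFD is a high-fat diet without choline and with limited methionine, whose protein is replaced by amino acids and that gives steatohepatitis. Each of the 4 groups had 5 mice: WT on control diet (NDWT), TSP-1 null on control diet (NDKO), WT on CDAHFD (HFWT) and TSP-1 null on CDAHFD (HFKO). WT and null mice came as separate lines, and whether they were littermates is not given in the sources used here.

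Bile ducts are lined by cholangiocytes, epithelial cells that modify bile and carry keratins 7 and 19 besides the keratins 8 and 18 of hepatocytes. In chronic liver injury small duct-like cells spread from the portal tracts into the lobule, a change called the ductular reaction, which runs alongside fibrosis in fatty liver disease. The cells of this reaction share markers with embryonic biliary precursors, and Notch, YAP and SOX9 are known regulators of that fate.

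Between 15641545 and 23276322 fragments were assigned per library (median 18950482.5). Thbs1 did not follow the genotype labels: its FPKM ran from 0.058 to 0.326 in the libraries labelled NDWT and from 0.986 to 1.895 in those labelled NDKO. On control diet it was higher in the libraries labelled TSP-1 null (log2FC 2.28, SE 0.24, FDR 1.02e-05). On CDAHFD it was 4.62 ± 1.22 FPKM (SD, n = 5) in HFWT and 3.44 ± 0.547 in HFKO, which overlapped (log2FC −0.39, SE 0.24, FDR 0.408) and did not pass the threshold. Genotypes below are therefore those of the labels. Hepatocyte markers dominated, with a sum over 8 genes of 25722 to 44999 FPKM per library, whereas the 6 pancreatic acinar genes summed to at most 0.238 FPKM. Of these, Cela3b, Pnlip and Amy2a5 were at 0 in every library, and Prss2, Cpa1 and Ctrb1 held at most 2 fragments in any.

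The deposited coordinates are on the mouse build GRCm38. The 3 keratins lie on 2 chromosomes: Krt7 at chr15:101411043-101430313 (plus strand), Krt19 at chr11:100140810-100148665 and Krt23 at chr11:99477974-99493137 (both minus strand). Epcam lies at chr17:87635979-87651106, Sox9 at chr11:112782224-112787760 and Cftr at chr6:18170687-18322768, all on the plus strand. Sox4 lies at chr13:28948919-28953713 and Prom1 at chr5:43993625-44102032, both on the minus strand. All 8 are protein coding. The length behind Krt7 values was 7055 bases, whereas its longest transcript in GENCODE M21 has 4094, so its level per kilobase depends on which length is taken. No stretch of 31 bases was shared between transcripts of any 2 of the 8 genes. Against all other genes, Krt7 shared 149 of its 7065 such stretches, Prom1 122 of 7418, Sox9 46 of 4105 and Sox4 26 of 4765, and Krt23 and Cftr shared 0. Records that overlap Sox4, Cftr or Prom1 held at most 3 fragments in any library.

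Promoter windows, 250 bases before to 50 after an annotated start in RefSeq on GRCm38.p6, were given for 6 of the 8 genes (all but Krt19 and Sox9). They are shown because most of these genes rose together and Krt23 did not. The windows lie at chr17:87635729-87636028 for Epcam, chr15:101412153-101412452 for Krt7, chr6:18170437-18170736 for Cftr, chr13:28953650-28953949 for Sox4 and chr11:99493071-99493370 for Krt23. Each is printed 5′ to 3′ on the strand of its gene, and capitals mark matches, on either strand, to the core letters searched.
Epcam: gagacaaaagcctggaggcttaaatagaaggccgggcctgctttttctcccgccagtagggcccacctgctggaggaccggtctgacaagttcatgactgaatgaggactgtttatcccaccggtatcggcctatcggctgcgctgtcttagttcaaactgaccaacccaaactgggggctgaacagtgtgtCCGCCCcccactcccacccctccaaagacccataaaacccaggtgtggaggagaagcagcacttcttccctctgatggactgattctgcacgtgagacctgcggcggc
Krt7: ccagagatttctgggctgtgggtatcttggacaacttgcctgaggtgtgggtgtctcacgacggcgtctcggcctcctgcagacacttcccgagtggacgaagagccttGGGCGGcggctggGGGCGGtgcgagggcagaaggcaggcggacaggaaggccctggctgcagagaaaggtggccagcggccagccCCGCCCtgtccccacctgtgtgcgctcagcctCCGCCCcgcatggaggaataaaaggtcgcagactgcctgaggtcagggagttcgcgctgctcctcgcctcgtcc
Cftr: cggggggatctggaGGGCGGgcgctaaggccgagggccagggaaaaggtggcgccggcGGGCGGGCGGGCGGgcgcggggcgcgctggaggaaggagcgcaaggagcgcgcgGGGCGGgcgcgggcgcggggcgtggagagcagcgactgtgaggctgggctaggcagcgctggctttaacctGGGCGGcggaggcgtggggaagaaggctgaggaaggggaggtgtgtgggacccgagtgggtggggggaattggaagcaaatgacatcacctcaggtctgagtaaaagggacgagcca
Sox4: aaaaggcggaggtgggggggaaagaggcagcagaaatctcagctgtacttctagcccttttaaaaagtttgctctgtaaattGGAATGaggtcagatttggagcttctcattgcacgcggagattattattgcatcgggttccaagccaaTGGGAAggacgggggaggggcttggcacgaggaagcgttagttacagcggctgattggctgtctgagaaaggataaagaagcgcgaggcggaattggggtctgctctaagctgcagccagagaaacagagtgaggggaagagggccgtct
Krt23: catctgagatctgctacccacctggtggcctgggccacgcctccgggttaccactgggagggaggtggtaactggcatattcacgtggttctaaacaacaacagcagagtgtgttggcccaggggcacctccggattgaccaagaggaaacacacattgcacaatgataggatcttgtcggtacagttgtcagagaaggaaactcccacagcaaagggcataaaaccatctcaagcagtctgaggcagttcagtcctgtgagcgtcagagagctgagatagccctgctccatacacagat
The letters searched were GGAATG for TEAD, TGGGAA for RBPJ, GTTAAT for HNF1, TATAAA for the TATA box and GGGCGG for SP1. Cftr held 6 SP1 matches, of which 3 overlap each other, Krt7 held 4 and Epcam held 1. Sox4 held the TEAD letters at −168 and the RBPJ letters at −100, counted from the start site. The Krt23 window held 0 matches to any of the 5 motifs. Prom1 had 2 windows, which are not printed: 1 held the RBPJ letters at −116 and the SP1 letters at −62, with 10 CG pairs, and the other held 0 matches and 4 CG pairs. Of the 32851 mouse windows of the same length, 35.7% held SP1 letters, 14.7% TEAD letters and 25.6% RBPJ letters. CG pairs numbered 31 in Cftr, 21 in Krt7, 12 in Sox4, 11 in Epcam and 6 in Krt23, against a median of 7 over all windows. The Krt7 start site lies 1360 bases inside the deposited gene record. These matches describe letters only.

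The first question was how CDAHFD changed the markers. All but Krt23 rose several-fold in both genotypes, from levels near or below 1 FPKM on control diet, other than Sox9 at 1.20 to 3.23 FPKM. Of the 7 genes that passed the filter on low values (FPKM above 0.5 in at least 5 libraries), 6 were higher DEGs in WT mice and 7 in TSP-1 null mice. Krt7, Prom1 and Krt19 passed it only through their CDAHFD libraries, as their control diet maxima were 0.153, 0.186 and 0.533 FPKM. A gene this low that did not rise would not have been counted, so the filter partly fixes these counts and the medians below. A differentially expressed gene (DEG) has a Benjamini-Hochberg FDR under 0.05 in limma over 14524 tested genes and an absolute log2FC above 0.58. Higher DEGs made up 44.1% of all tested genes in WT and 41.9% in null mice, and the median log2FC of all tested genes was 0.53 and 0.50. The median of the 7 markers was 3.38 and 3.09. Another scaling between libraries, by the median of ratios, turned the 6412 higher and 671 lower DEGs in WT into 3299 and 2242, and the 6088 and 581 in null mice into 3225 and 1981, and moved the all-gene medians to −0.01 each. Under it 6 markers were higher DEGs in each genotype, and the median of the 7 was 2.92 in WT and 2.62 in null mice. Quantile normalization also gave 6 in each, with marker medians of 2.22 and 2.15 beside all-gene medians of −0.09 each. In bulk liver, more cells of a type and more RNA per cell cannot be told apart. For 7 of the 8 genes (all but Krt23) every CDAHFD library exceeded every control diet library of the same genotype, a pattern seen in 50.5% of tested genes in WT and 52.7% in null mice.

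**Figure D1:**
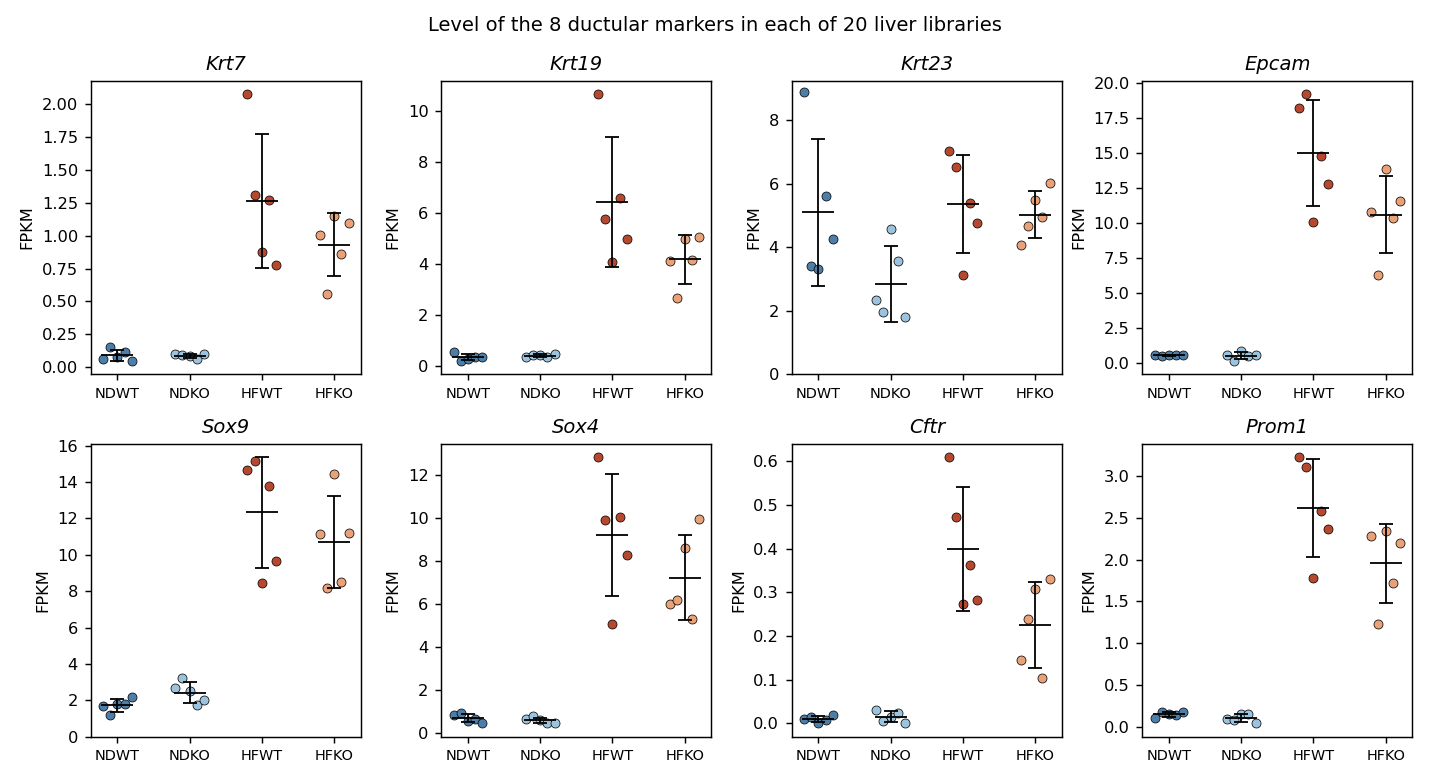
FPKM (linear axis from 0) of each marker in the 20 libraries, 5 per group; points are libraries, the horizontal bar is the group mean and the whiskers its SD. In 7 panels the CDAHFD points lie above all control diet points, and in the Krt23 panel all groups overlap.

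Among the surface markers, Epcam, a cell adhesion protein of epithelia that adult hepatocytes lack, had the largest log2FC of the 7 tested. Its FPKM was 0.526, 0.499, 0.551, 0.514 and 0.565 in NDWT and 18.2, 19.2, 10.04, 14.8 and 12.8 in HFWT. It was 0.522, 0.129, 0.813, 0.460 and 0.509 in NDKO and 10.8, 6.27, 13.8, 10.3 and 11.6 in HFKO. The NDWT libraries were almost level but rested on 17 to 25 fragments each, too few for this evenness to be read as a trait of the group. NDKO libraries held 6 to 31 fragments. The lowest CDAHFD library, HFKO2, stood well above the highest control library. The mean rose from 0.531 ± 0.0269 to 15.0 ± 3.79 FPKM in WT (SD, n = 5), a ratio of 28.3, and from 0.487 ± 0.243 to 10.6 ± 2.75 in null mice, a ratio of 21.7. On the log2 scale with a pseudocount of 0.1 the change was 4.54 (SE 0.27, FDR 3.49e-11) in WT and 4.27 (SE 0.27, FDR 1.09e-10) in null mice. These values ranked 50 and 55 among all tested genes by size of increase.

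Prom1 encodes prominin-1 (CD133), a membrane glycoprotein used to sort biliary progenitor cells. It was at 0.114, 0.186, 0.162, 0.142 and 0.178 FPKM in NDWT against 3.22, 3.10, 1.78, 2.58 and 2.37 in HFWT. In null mice it was at 0.097, 0.088, 0.154, 0.152 and 0.044 FPKM in NDKO against 2.29, 1.23, 2.34, 1.71 and 2.196 in HFKO. The groups did not overlap in either genotype, although control diet libraries rested on 4 to 16 fragments each. Mean FPKM rose 16.7-fold in WT and 18.3-fold in null mice (log2FC 3.38, SE 0.20, FDR 3.47e-11, and 3.31, SE 0.20, FDR 6.63e-11).

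The simple keratins 7 and 19 form the intermediate filaments of the bile duct lining. Krt19 FPKM was 0.533, 0.194, 0.273, 0.346 and 0.324 in NDWT and 10.7, 5.78, 4.07, 6.59 and 4.99 in HFWT. It was 0.340, 0.403, 0.432, 0.337 and 0.453 in NDKO and 4.10, 2.65, 4.98, 4.15 and 5.06 in HFKO. HFWT1 stood above the other CDAHFD libraries, and no control library reached 0.6 FPKM. Control values came from 6 to 23 fragments per library. The log2FC was 3.88 (SE 0.23, FDR 2.81e-11) in WT and 3.09 (SE 0.23, FDR 7.45e-10) in null mice, with ratios of the means of 19.2 and 10.7.

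Krt7 was the lowest of the keratins per length. It measured 0.067, 0.153, 0.080, 0.116 and 0.050 FPKM in NDWT, and 2.07, 1.31, 0.874, 1.27 and 0.779 in HFWT. It measured 0.103, 0.094, 0.083, 0.062 and 0.098 FPKM in NDKO, and 1.00, 0.553, 1.15, 0.861 and 1.09 in HFKO. Control values came from 7 to 18 fragments per library, and each CDAHFD library was more than 3 times the highest of them. The log2FC was 2.77 (SE 0.24, FDR 5.86e-09) in WT and 2.42 (SE 0.24, FDR 4.10e-08) in null mice. The pseudocount lowers these values for a gene this low, and the means differed 13.5-fold and 10.6-fold.

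Sox9 and Sox4 encode transcription factors that act together in bile duct formation in the embryo. Sox9 was at 1.70, 1.20, 1.78, 1.79 and 2.17 FPKM in NDWT and at 14.7, 15.1, 8.43, 13.8 and 9.67 in HFWT. It was at 2.66, 3.23, 2.496, 1.73 and 2.05 FPKM in NDKO and at 11.2, 8.18, 14.5, 8.52 and 11.2 in HFKO. The lowest CDAHFD value thus exceeded the highest control value, and the control level was the highest of the 6 rising DEGs. The log2FC was 2.75 (SE 0.20, FDR 4.04e-10) in WT and 2.09 (SE 0.20, FDR 1.99e-08) in null mice, and the ratios of the means were 7.13 and 4.41.

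Sox4 started lower and rose further. Its FPKM was 0.842, 0.912, 0.551, 0.656 and 0.470 in NDWT and 12.8, 9.88, 5.08, 10.02 and 8.28 in HFWT. It was 0.637, 0.780, 0.591, 0.470 and 0.444 in NDKO and 5.99, 6.19, 8.58, 5.32 and 9.96 in HFKO. Neither genotype had an overlap between diets, and HFWT3 was the lowest CDAHFD library. The log2FC was 3.54 (SE 0.23, FDR 7.92e-11) in WT and 3.40 (SE 0.23, FDR 1.81e-10) in null mice, with ratios of the means of 13.4 and 12.3. Of the 7 other tested SOX genes, 0 passed the limma thresholds in WT mice and 3 had an unadjusted p under 0.05, with log2FC values of 0.57 for Sox13 (FDR 0.000765), 0.44 for Sox12 (FDR 0.0481) and −0.29 for Sox6 (FDR 0.0198). Sox7 stood at 0.42 (FDR 0.176). In null mice Sox13, Sox12 and Sox7 were higher DEGs (0.74, 0.66 and 1.12). The median over the 7 genes was 0.31 and 0.30, below the median of all genes, and turned to −0.24 and −0.20 under median of ratios scaling and to −0.72 and −0.38 under quantile normalization.

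Cftr, the chloride channel of the duct cell apex that drives bicarbonate-rich secretion, was too low for the filter and was compared by itself. NDWT libraries held 0 to 3 fragments and NDKO libraries 0 to 5. Its FPKM was 0.610, 0.472, 0.273, 0.362 and 0.283 in HFWT, from 38 to 85 fragments, and 0.146, 0.239, 0.308, 0.104 and 0.331 in HFKO, from 16 to 49. Both CDAHFD groups lay entirely above their control groups (exact permutation p = 0.00794 in each genotype, two-sided, the smallest that 5 against 5 libraries can give). Since NDWT lay at or below 3 fragments in every library, Cftr was at least 19.4-fold higher in HFWT against that floor per library. In null mice 162 fragments in HFKO faced 11 in NDKO, a rate ratio of 15.3 (95% CI 8.33 to 31.3). This interval covers counting error only, and the libraries carry no molecular identifiers.

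Krt23, a type I keratin known to appear in diseased liver, behaved differently. Its FPKM was 8.87, 3.41, 3.30, 5.62 and 4.26 in NDWT and 7.02, 6.51, 3.12, 5.38 and 4.77 in HFWT. It was 2.32, 1.94, 4.58, 3.56 and 1.80 in NDKO and 4.05, 4.66, 5.47, 4.95 and 6.002 in HFKO. The WT groups overlapped throughout, NDWT1 being the highest of all 20 libraries, and NDKO held the lowest values. In WT the log2FC was 0.12 (SE 0.28, 95% CI −0.46 to 0.70, FDR 0.708). In null mice it was 0.88 (SE 0.28, FDR 0.00809), a DEG, from 2.84 ± 1.19 to 5.03 ± 0.748 FPKM. That call was lost with median of ratios scaling (0.36, FDR 0.277) and quantile normalization (0.22, FDR 0.493), and the WT value became −0.43 and −0.52. The difference between the genotypes in the diet effect was 0.76 (SE 0.39, FDR 0.375) and did not pass. Relative to the median of all genes, the Krt23 change was −0.41 in WT and 0.38 in null mice.

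**Figure D2:**
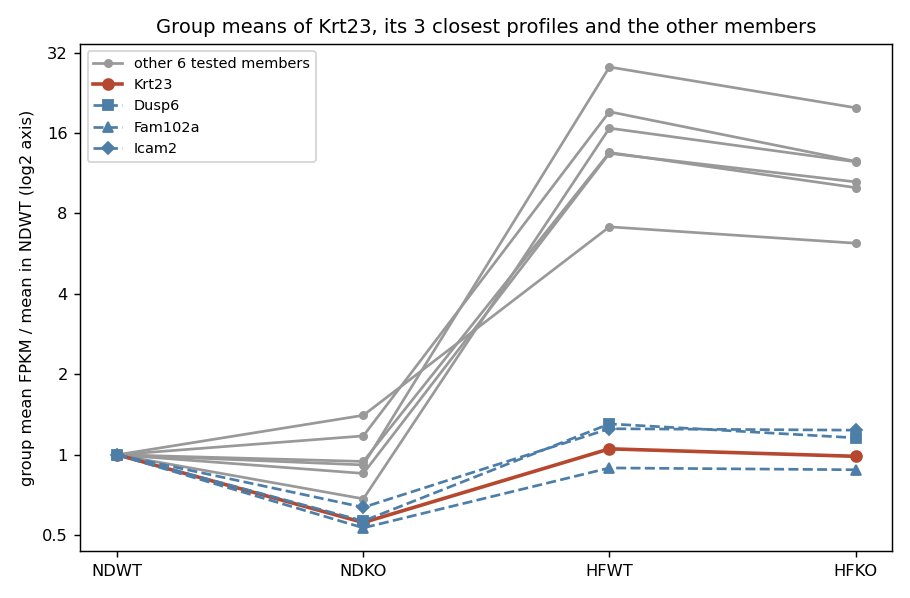
Group mean FPKM divided by the NDWT mean (log2 axis; n = 5 per group, no error drawn) for Krt23 in red, the 3 genes closest to it in dashed blue and the other 6 tested markers in grey. The grey lines climb to between 7.13 and 28.3 times NDWT in HFWT, while Krt23 stands at 1.053.

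By level per length, the order changed with diet. On control diet Krt23 led in WT mice at 5.09 ± 2.31 FPKM, followed by Sox9 at 1.73 ± 0.346, Sox4 at 0.686 ± 0.188 and Epcam at 0.531 ± 0.0269, and Epcam overlapped with Sox4 and with Krt19. Krt19 (0.334 ± 0.126), Prom1 (0.156 ± 0.0291), Krt7 (0.0932 ± 0.0413) and Cftr (0.0106) came below. In NDKO Krt23 (2.84 ± 1.19) and Sox9 (2.43 ± 0.577) overlapped at the top, followed by Sox4 (0.584 ± 0.136), Epcam (0.487 ± 0.243), Krt19 (0.393 ± 0.0528), Prom1 (0.107 ± 0.0465), Krt7 (0.088 ± 0.0163) and Cftr (0.015). In HFWT the order was Epcam (15.0 ± 3.79), Sox9 (12.3 ± 3.06), Sox4 (9.21 ± 2.83), Krt19 (6.42 ± 2.55), Krt23 (5.36 ± 1.54), Prom1 (2.61 ± 0.584), Krt7 (1.26 ± 0.510) and Cftr (0.4 ± 0.142). Neighbours from Epcam down to Krt23 lay within about 1 SD of each other. HFKO had Sox9 at 10.7 ± 2.54 and Epcam at 10.6 ± 2.75, which overlapped, then Sox4 at 7.21 ± 1.97, and Krt23 at 5.03 ± 0.748 stood above Krt19 at 4.19 ± 0.968, again with overlap.

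The next question was whether the genotype changed these markers on either diet. On control diet 0 of 7 tested markers were DEGs in limma, where 4.77% of all tested genes were, and no marker separated the labels (non-overlap was seen in 2.33% of tested genes as higher and 6.69% as lower in null mice). At an unadjusted p under 0.05 there were 2, Krt23 and Sox9. No share of all tested genes at this unadjusted level is given, here or in the comparisons below, so such counts are a description. Krt23 had a log2FC of −0.81 (95% CI −1.39 to −0.23, FDR 0.0599) from 5.09 to 2.84 FPKM, and the genotypes overlapped between 3.30 and 4.58 FPKM. It passed as a lower DEG when NDWT2 (FDR 0.0450), NDWT3 (FDR 0.0481), NDKO3 (FDR 0.0234) or HFWT3 (FDR 0.0482) was left out. Sox9 had a log2FC of 0.46 (95% CI 0.04 to 0.88, FDR 0.138). The other 5 lay between −0.33 (Prom1) and 0.22 (Krt19), with intervals that all include 0. Cftr had 8 fragments in NDWT and 11 in NDKO (exact permutation p = 0.556).

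On CDAHFD the means of all 8 markers were lower in the libraries labelled TSP-1 null, but 0 of 7 were DEGs in limma, where 0.496% of all tested genes were. At an unadjusted p under 0.05 there was 1, Krt19, with a log2FC of −0.56 (95% CI −1.04 to −0.08, FDR 0.2197). The log2FC was −0.51 for Epcam (−1.08 to 0.06), −0.41 for Prom1 (−0.83 to 0.02), −0.36 for Krt7 (−0.87 to 0.15) and −0.33 for Sox4 (−0.80 to 0.15), each with its 95% CI. Sox9 stood at −0.19 (−0.61 to 0.22). Krt23 stood at −0.05 (−0.63 to 0.53), and only for Krt23 did the sign turn under median of ratios scaling (0.05) or quantile normalization (0.06). Every marker overlapped between HFWT and HFKO, while 0.847% of tested genes lay wholly higher and 4.13% wholly lower in HFKO. These intervals do not exclude a decrease of Epcam or Krt19 by 1 on the log2 scale. The median over the 7 was −0.36, beside −0.10 for all tested genes. Cftr was lower by 0.63 on the log2 scale (exact permutation p = 0.0635), and p became 0.0476 (exact) when HFWT3 or HFKO5 was left out.

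**Figure D3:**
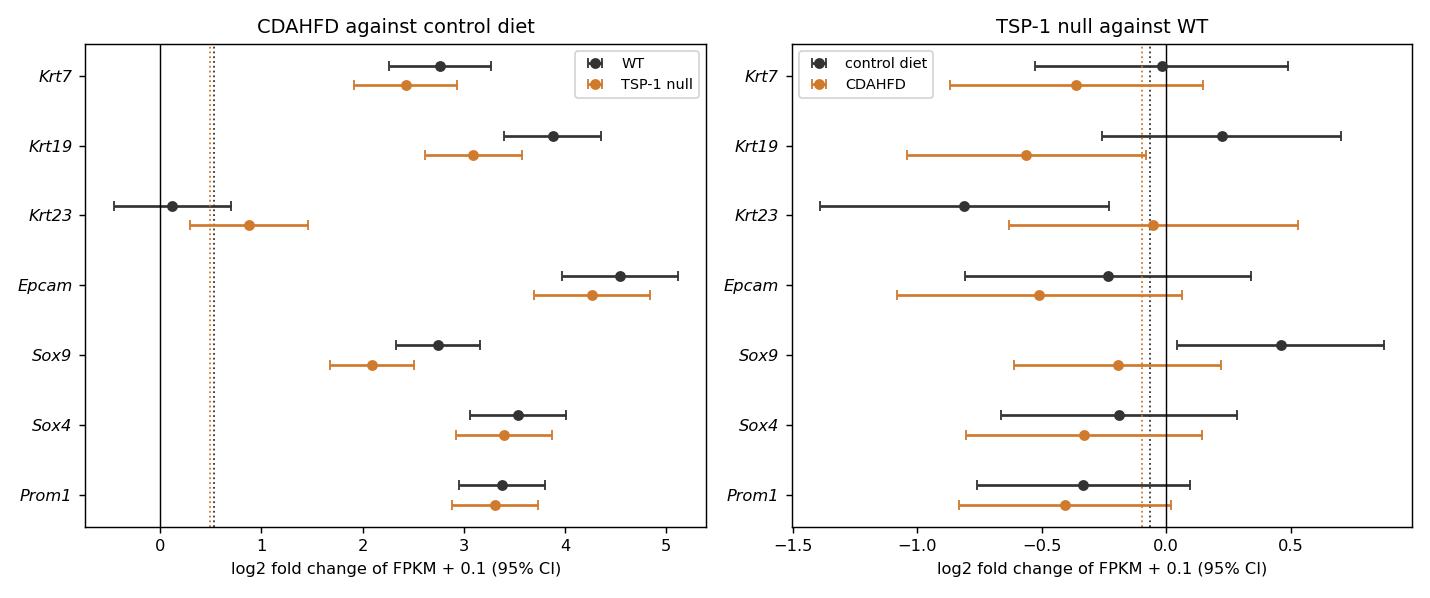
Change in log2(FPKM + 0.1) with its 95% CI for the 7 markers tested with limma, n = 5 per group; the left panel compares diets within genotype and the right panel genotypes within diet, with dotted lines at the median of all 14524 genes. Diet intervals lie above 1.5 for all but Krt23, whereas 5 of 7 control diet and 6 of 7 CDAHFD genotype intervals include 0.

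The diet effect in null mice less that in WT was tested for each gene, and 0 of 7 markers passed in limma, where 0.647% of all tested genes were DEGs. At an unadjusted p under 0.05 there were 2: Krt19 at −0.78 (SE 0.33, FDR 0.252) and Sox9 at −0.65 (SE 0.28, FDR 0.269). Values for the rest were −0.34 for Krt7, −0.28 for Epcam, −0.14 for Sox4 and −0.07 for Prom1. A difference between genotypes in the rise was thus not detectable for these genes at this spread.

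Within each CDAHFD group the same libraries tended to stand high or low across the markers. HFWT1 was the highest of its group in 6 of 8 markers, and HFWT3 was the lowest in 7 of 8. Over all 8 markers HFWT1 stood at 1.19 to 1.66 times the group mean and HFWT3 at 0.552 to 0.693 times. In HFKO, library 2 was the lowest in 5 markers and libraries 3 and 5 the highest in 4 each. HFKO2 also had the fewest fragments of all libraries, 15641545. HFWT1 had the lowest hepatocyte sum of all libraries, 25722 FPKM, and the highest sums of stellate cell (245 FPKM) and mesothelial markers (11.1 FPKM). In HFWT3 these sums were 32866, 139 and 6.64 FPKM, beside group medians of 33417, 140 and 6.48. Whether tissue makeup or depth bears on the marker levels was not tested. Without HFWT1 or HFWT3 the count of diet DEGs in WT stayed at 6.

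**Figure D4:**
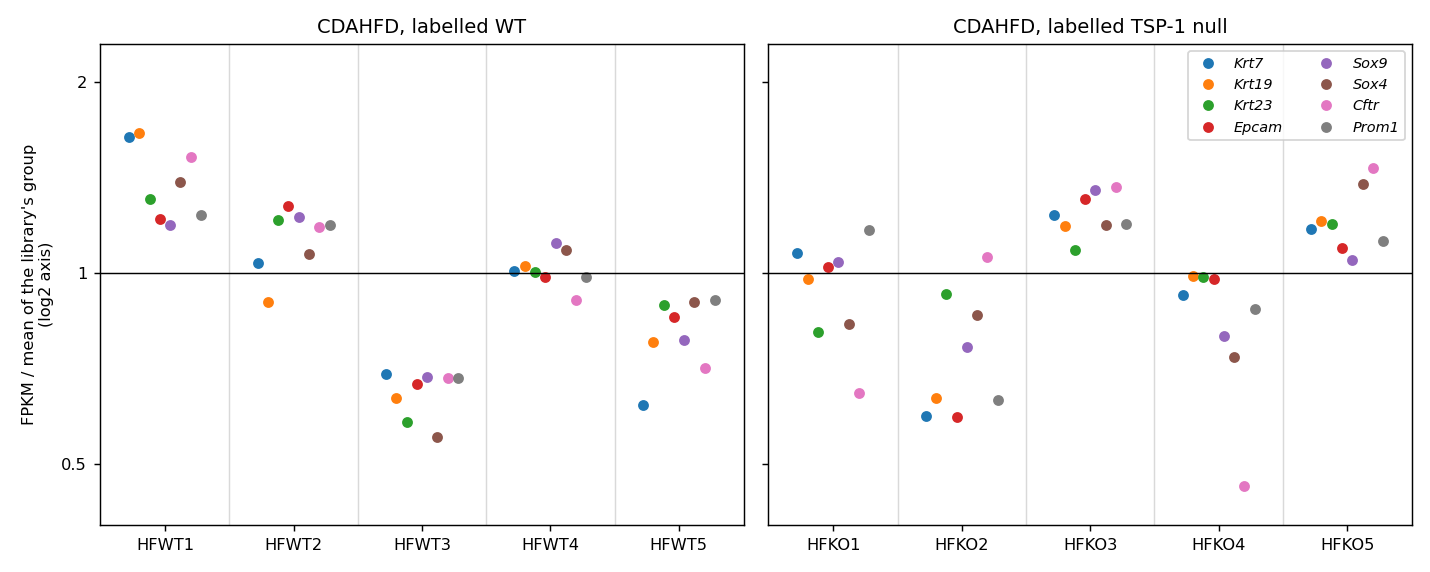
FPKM of each marker divided by the mean of its own group (log2 axis) in the 10 CDAHFD libraries; each point is 1 marker in 1 library. All 8 points of HFWT1 lie above 1 and all 8 of HFWT3 below 0.7, and all 8 lie above 1 in HFKO3 and HFKO5.

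Other genes of the bile duct lining moved with the markers. The gene lists were also chosen with earlier results of these data known and went through the same filter, so their counts are a description. The counts in the lists that follow stand beside the 44.1% (WT) and 41.9% (null) of all tested genes that were higher DEGs. Those shares were 22.7% and 22.2% under median of ratios scaling and 17.3% and 16.7% under quantile normalization. Counts of lower genes stand beside 671 (WT) and 581 (null) lower DEGs among the 14524 tested genes. These were 2242 and 1981 under median of ratios scaling and 2562 and 2186 under quantile normalization. Of 14 further biliary identity genes 12 were tested, and 11 were higher DEGs in each genotype (median log2FC 4.04 in WT and 3.80 in null mice), or 10 in each under either other scaling. They included Spp1 (osteopontin; log2FC 4.76 and 4.50), the epithelial transcription factor Ehf (4.29 and 3.81), the RNA-binding protein gene Bicc1 (4.05 and 3.34) and the annexin gene Anxa4 (2.00 and 2.03), all with FDR of 7.58e-12 or less. Onecut1, a hepatobiliary transcription factor, was the exception (0.14 and 0.02), and 1 NDWT library held 40.0 FPKM of it where the lowest held 0.977.

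Cell junction and simple keratin genes rose with them, 10 of 12 in WT and 11 of 12 in null mice (medians 1.66 and 1.60). Median of ratios scaling gave 7 and 8 higher, and quantile normalization 8 and 10. The claudin genes Cldn4 (4.88 and 4.36) and Cldn7 (3.98 and 3.37) and the hepatocyte and duct keratin Krt8 (2.15 and 1.89) were among them. Cldn6, which NDWT held at the floor, was at least 16.2-fold higher in HFWT. Of 9 tested genes of bile duct transport and secretion, 5 rose in WT, a share near that of all genes, and 8 in null mice, or 5 in each under median of ratios scaling and 5 and 6 under quantile normalization. These included Slc5a1, a sodium-glucose cotransporter (3.41 and 3.43), carbonic anhydrase 2 (Car2, 2.52 and 2.06), the calcium-gated chloride channel Ano1 (2.67 and 2.18) and the bile acid importer Slc10a2 (1.64 and 2.68). All 5 tested progenitor and fetal genes rose in both genotypes, though 4 and 3 did under median of ratios scaling and 2 in each under quantile normalization. Among them were Afp, alpha-fetoprotein (2.06 and 2.09), and the Wnt target Lgr5 (1.58 and 1.40). Ncam1, at the floor in NDWT, was at least 25.6-fold higher in HFWT.

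Of 12 tested Notch pathway genes, 9 were higher DEGs in WT and 10 in null mice (medians 1.20 and 1.07). Under median of ratios scaling 7 and 6 were higher DEGs, and under quantile normalization 3 in each, with 2 and 1 lower. The ligands Jag1 (1.42 and 1.71) and Dll1 (0.97 and 1.42), the mediator Rbpj (1.17 and 0.90) and the target Hes1 (1.43 and 1.83) were all called with FPKM as deposited. Of 10 YAP and TEAD genes 6 and 7 rose, the WT share lying near that of all genes. Median of ratios scaling gave 5 and 7, and quantile normalization 3 and 5, with 1 lower in WT under each. As deposited, log2FC values in WT and null mice put the target Ankrd1 at 4.72 and 3.55, Ctgf at 3.00 and 1.74, the coactivator Wwtr1 (TAZ) at 1.13 and 1.24 and Tead1 at 1.83 and 1.78. Of 7 tested growth signals 5 rose in each genotype (4 under either other scaling), among them the cytokine Tnfsf12 (TWEAK; 1.72 and 1.54), its receptor Tnfrsf12a (2.36 and 2.08) and the hedgehog ligand Ihh (2.56 and 3.61), and 1 was lower in WT, the HGF receptor gene Met (−0.65). Under either other scaling 2 growth signals were lower in WT, and under median of ratios scaling 1 was lower in null mice.

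**Figure D5:**
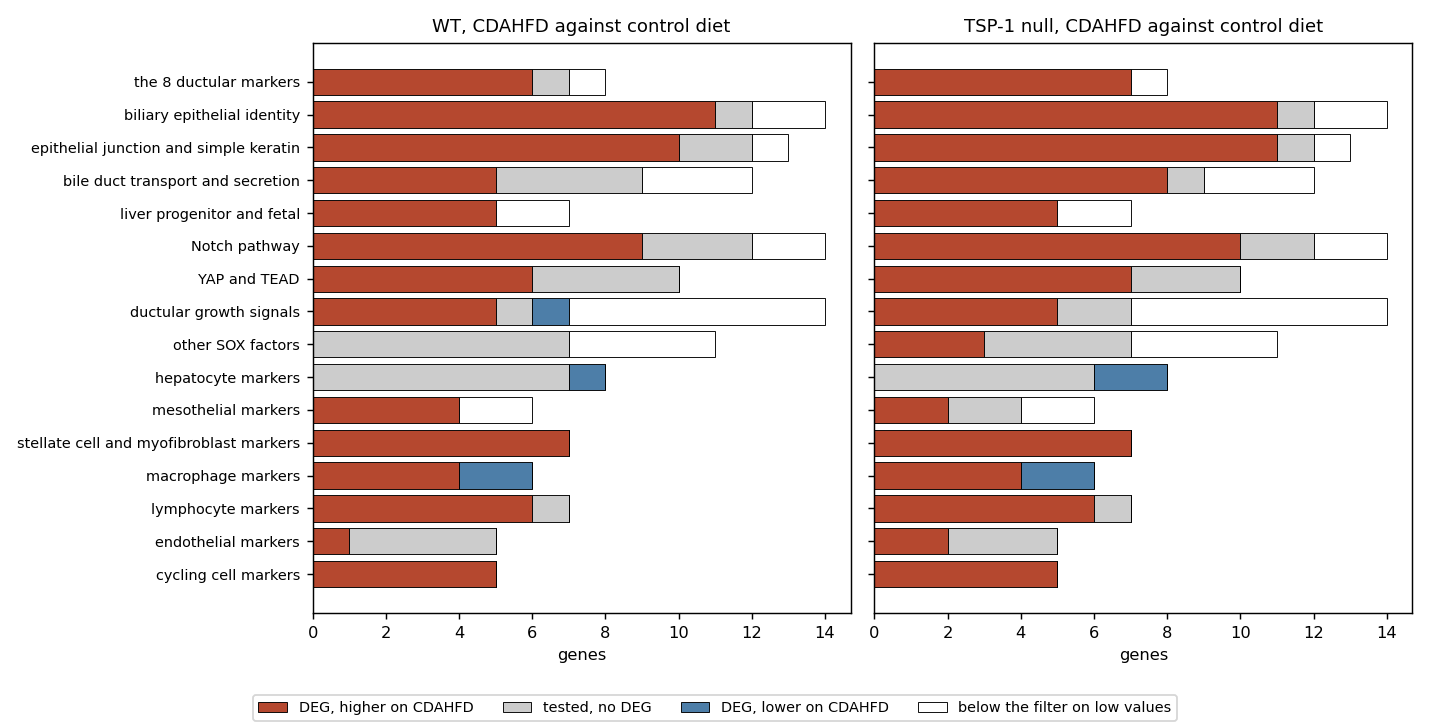
Number of genes (axis) of each list that were higher DEGs (red), lower DEGs (blue), tested without a call (grey) or below the filter (white) on CDAHFD against control diet, in WT and TSP-1 null mice. The 8 ductular markers stand at 6 and 7 red of 7 tested, and biliary identity genes at 11 of 12 in both.

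Of the 67 tested genes of these 7 lists, 5 were DEGs between genotypes on control diet (7.46%, beside 4.77% of all tested genes), and 18 had an unadjusted p under 0.05. The unadjusted counts on either diet have no share of all tested genes beside them and cannot be read as particular to these lists. The libraries labelled TSP-1 null had lower Jag1 (log2FC −0.91, FDR 0.0030), Slc10a2 (−1.04, FDR 0.00393), the junction gene Tjp3 (−0.62, FDR 0.0450) and Cyr61 (−1.46, FDR 0.000224), and higher Ctgf (1.03, FDR 0.0410). On CDAHFD 0 of the 67 were DEGs in limma, where 0.496% of all tested genes were, and 11 had an unadjusted p under 0.05. Of these, Anxa4 had an FDR of 0.0160 with a log2FC of −0.33, short of the fold threshold, and Spp1 a log2FC of −0.59 with an FDR of 0.0761. Of the 12 biliary identity genes tested, 11 had a negative log2FC there, with a median of −0.41. So had 10 of 12 junction and keratin genes, 4 of 5 progenitor and fetal genes and 4 of 7 growth signals. For YAP and TEAD it was 5 of 10, for transport 4 of 9 (median 0.00) and for Notch 3 of 12. The median of all tested genes was −0.10, and no share of negative signs over them is given, so these counts are a description.

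Markers of other cell types moved on CDAHFD as well. Lower DEGs among all 14524 tested genes, to set beside the lower counts here, numbered 671 in WT and 581 in null mice. They numbered 2242 and 1981 under median of ratios scaling and 2562 and 2186 under quantile normalization. All 7 stellate cell and myofibroblast markers rose in both genotypes (medians 2.28 and 2.60), and their sum went from 11.3 to 16.7 FPKM in NDWT to 110 to 245 in HFWT, and from 13.7 to 15.3 in NDKO to 99.6 to 192 in HFKO. Macrophage markers split, with 4 of 6 higher and 2 lower in each genotype (the Kupffer cell genes Timd4 at −3.52 and −3.13 and Clec4f at −1.22 and −0.77), and summed to 131 to 181, 881 to 1182, 124 to 209 and 537 to 1148 FPKM in NDWT, HFWT, NDKO and HFKO. Mesothelial markers rose in 4 of 4 tested genes in WT and 2 of 4 in null mice, yet their sum never passed 11.1 FPKM. Cycling cell markers rose in 5 of 5 in both genotypes, and lymphocyte markers in 6 of 7. Endothelial markers rose in 1 of 5 in WT and 2 of 5 in null mice. Hepatocyte markers fell in 1 of 8 in WT (Tat, −0.73) and 2 of 8 in null mice (Cps1, −0.85, and Tat, −1.07), and their sum ran in WT from 33479 to 41030 FPKM on control diet and 25722 to 37146 on CDAHFD, and in null mice from 37255 to 44435 and 34038 to 44999. Between genotypes on control diet, Cps1 was higher (log2FC 1.10, FDR 0.000949) and Acta2 lower (−1.13, FDR 0.0155) in the libraries labelled TSP-1 null. Median of ratios scaling gave 8 and 5 of 8 hepatocyte markers lower, and quantile normalization 0 and 1. The lymphocyte count became 5 and 3 under the first and 3 and 0 under the second, where 1 was lower in null mice. Of the mesothelial markers 2 in each genotype were higher under the first scaling and 1 under the second, where 1 was lower in null mice, and of the cycling cell markers 5 in each and then 3 and 4. Under either scaling 6 of 7 stellate cell and myofibroblast markers were higher in WT and 5 in null mice. Endothelial markers gave 0 higher and 1 lower in WT and 1 higher in null mice under either, and the macrophage counts did not change. What these cell types contribute to the marker levels was not tested.

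For each tested marker the 3 other genes with the most similar profile were found as the smallest root mean square difference of centred log2(FPKM + 0.1) over the 20 libraries. Epcam lay closest to Spp1 (0.35), Scara3 (0.35) and Cd24a (0.37). Krt19 lay closest to Lamc3 and Col4a5 (0.30 each), basement membrane genes, and to Bicc1 (0.32), and Krt7 to Pamr1 (0.18), Ezr (0.19) and Mapk8ip1 (0.22). Sox9 lay closest to Plxna3, Nlgn2 and Pck2 (0.25 to 0.26), Sox4 to Fbn2, Mfge8 and Scube3 (0.28 to 0.29), and Prom1 to Enah, Slc5a1 and Crispld2 (0.28 to 0.30). Among the markers themselves Sox4 and Prom1 were the closest pair (0.34), and Krt23 was at least 1.15 from every other one. Krt23 varied least, with a profile SD of 0.58 over the 20 libraries. The other tested markers ran from 1.29 for Sox9 to 2.31 for Epcam, so distances to Krt23 partly reflect its small changes.

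Krt23 lay closest to Dusp6 (0.37), a phosphatase that switches off ERK, Fam102a (0.37) and Icam2 (0.38). Beside its own SD of 0.58 these differences are large, so the likeness is weaker than that found for the other markers. Dusp6, Fam102a and Icam2 were lowest in NDKO, as Krt23 was. On control diet Dusp6 measured 18.7 ± 7.21 FPKM in WT and 10.6 ± 1.97 in null mice, and on CDAHFD 24.4 ± 4.70 and 21.7 ± 4.64. Fam102a measured 14.5 ± 2.77, 7.71 ± 1.69, 12.9 ± 1.24 and 12.7 ± 2.10 FPKM in the same order, and Icam2 1.55 ± 0.249, 0.983 ± 0.307, 1.94 ± 0.476 and 1.91 ± 0.2498. They were picked for this likeness, so these levels are a description.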

How the data were processed

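Poly(A) RNA-seq of 20 mouse livers was used as FPKM values that the authors deposited for 38924 genes, made with QuickRNASeq. The submitters' processing notes name STAR 2.5.2, featureCounts and Subread 1.5.1, and GRCh38, whereas the coordinates match mouse GRCm38 (99.8% of 37607 identifiers). Tissue is named as right medial lobe in the series description and right lateral lobe in the paper. Fragments per gene were recovered from FPKM and length, with 99.97% of checked values whole in the lowest library. Whole means within the rounding of the deposited value or 0.02 fragments, whichever was larger, plus 5%, and values whose rounding reached 0.25 fragments were not checked. Libraries held 15641545 to 23276322 fragments, and 3 fragments on 1 kb equal 0.129 to 0.192 FPKM. Floors and intervals cover counting error only.

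Groups follow the sample labels. limma 3.58.1 (lmFit, contrasts.fit, eBayes with trend) was run on log2(FPKM + 0.1), all 20 libraries in 1 fit, over 14524 genes that 5 or more libraries held above 0.5 FPKM. A DEG has FDR under 0.05 and absolute log2FC above 0.58. Cftr, below the filter, was compared by two-sided exact permutation of 5 against 5 libraries. P-values measure the spread between mice. The script was tested on simulated data.

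The markers, gene lists and motifs were chosen with earlier results of these data known. Named genes are the 8 markers, Thbs1, the 4 DEGs with the lowest FDR per list and kind of comparison at most, and the 3 closest profiles per marker. Onecut1, Met, Clec4f, Sox6 and the acinar genes were named after their values were seen. Alternatives changed pseudocount, filter, scaling, thresholds, the model, a replicate block and each library. Python 3.11.15, pandas 2.3.3 and matplotlib 3.10.9 were used.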

Additional observations from a re-analysis of the deposited data

Results flagged for a closer look

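Among 36 sets of 5 libraries (8 markers and Thbs1 in 4 groups) checked for a library far from the rest, which chance gives in about 1 of 20, 1 was found: Thbs1 at 4.398 FPKM in HFKO5, where the other HFKO libraries lay between 3.048 and 3.316. The diet effect on Thbs1 differed between the genotype labels, with a difference of −2.66 on the log2 scale (FDR 0.0023), and Thbs1 was higher in the libraries labelled TSP-1 null on control diet. No marker met either criterion.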

How the results depend on the processing

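Over 32 alternatives (31 for the interaction), the count of diet DEGs among the markers ran from 6 to 7 in WT and from 6 to 8 in TSP-1 null mice, 7 in WT and 8 in null mice arising where a wider filter admitted Cftr. It stayed at 0 for genotype on CDAHFD and for the interaction. For genotype on control diet it ran from 0 to 1 with any 1 library left out, the 1 being Krt23. Cftr, genotype on CDAHFD, ran from −0.75 to −0.48 with 1 library left out, and passed the threshold without HFWT3 or HFKO5 (exact permutation p = 0.0476 in both). Median of ratios scaling turned the sign of Krt23 for diet in WT (−0.43) and for genotype on CDAHFD (0.048), of Krt7 for genotype on control diet (0.019) and of the Prom1 interaction (0.0091). Quantile normalization gave −0.52, 0.064 and 0.070 for the first 3. A pseudocount of 0.01 gave a Prom1 interaction of 0.17. With 1 library left out, Krt23 ran from −0.0078 to 0.34 for diet in WT and from −0.23 to 0.058 for genotype on CDAHFD. For genotype on control diet Krt7 ran from −0.10 to 0.085 and Epcam from −0.43 to 0.073, and the Prom1 interaction ran from −0.20 to 0.073. None of these changes of sign touched a call, and the cause of each was not tested. Over the single-gene values from limma, 1087 kept direction and side of the threshold, 20 turned sign, 4 gained a call and 2 lost one, both being Krt23 for diet in null mice under another scaling.

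With quantile normalization DEGs for diet were 2514 higher and 2562 lower in WT and 2421 and 2186 in null mice. Same-numbered libraries shared only a number, with correlations of their deviations from −0.133 to 0.081, and not every library was closest to its own number. With the replicate block the markers called stayed at 6, 7, 0, 0 and 0 for diet in WT, diet in null mice, genotype on control diet, genotype on CDAHFD and the interaction. Depth limits Cftr, Krt7 and Prom1 on control diet, with at most 18 fragments per library. Krt19, with 6 to 23, and Epcam, with 6 to 31, were little better covered there.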
